A study of Homo sapiens with 12 samples.

Results

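The regions described here are the open chromatin regions that differed, as called peaks, between p42-expressing and empty vector KO-52 cells after tunicamycin. Peaks of both conditions on chromosomes 1 to 22 and X were merged wherever they overlapped by at least 1 bp, which gave 261289 regions. Of these, 64733 regions (24.8%) held a peak in p42 cells alone and are called p42-only. Another 47187 (18.1%) held a peak in empty vector cells alone and are called EV-only, and 149369 (57.2%) were shared. KO-52 is an established line of acute myeloid leukaemia (AML) cells in which both copies of CEBPA are mutated, a background that all groups share, and it was transduced with the long CEBPA isoform p42, the short isoform p30 or an empty vector (EV). Tunicamycin was given at 2 µg/mL for 8 h and DMSO was the control. ATAC-seq, in which the transposase Tn5 cuts open chromatin, was done on the nuclei of 50000 cells per replicate, with 2 replicates in each of 6 conditions, 12 libraries in all.

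In its methods the transduced KO-52 cells carried p42 fused to ERT2, a receptor fragment that lets the protein into the nucleus once 4-hydroxytamoxifen is added, and were sorted for GFP. Cells with such fusions and their empty vector controls were given that drug before experiments, and the level of p42 in these cells cannot be read from the lists. The authors called peaks on the pooled replicates of a condition, so each condition is 1 list, there is no replicate spread, and no difference below was tested. Intervals on shares are 95% Wilson intervals, those on differences of shares are Newcombe intervals, and both cover the counting of regions only. The p42 list held 220835 peaks on these chromosomes and the EV list 200633. The estimated depth was 25440000 tags for p42 and 25130000 for EV cells, where a tag is a read as the peak caller piled it up. Depths and the tags at a summit were solved from the deposited enrichment and p-values of each list and are not read counts given by the authors. The other 4 lists ranged from 22250000 (EV in DMSO) to 29980000 tags (p42 in DMSO). A region without a peak did not pass the threshold of that list, which is not the same as closed chromatin.

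CEBPA is a basic leucine zipper transcription factor that drives granulocyte and monocyte differentiation. It binds DNA as a dimer through its C-terminal zipper, with itself, with other C/EBP proteins, or with partners such as ATF4 and AP-1 subunits, which read composite sites made of a part of each partner's motif. Tunicamycin blocks N-linked glycosylation, so that unfolded proteins build up in the endoplasmic reticulum and the sensors PERK, IRE1 and ATF6 start the unfolded protein response, of which ATF4 is a main effector. Both groups compared here were under this stress, and they differed in the p42 vector.

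The windows below were chosen from the strongest regions because they hold a motif, so they illustrate the contrast between both classes and do not measure it. Each window below spans 60 bases on each side of a summit on the plus strand of hg38, and is named after the protein-coding gene with the nearest transcription start. Windows over an annotated UTR were left out of this choice. The first 3 are the strongest p42-only regions with a match to the C/EBP motif TTGCNNAA in the window, the next 2 those with the C/EBP and AP-1 composite TGTTGCAA, and the last is the strongest with the C/EBP and ATF4 composite TGATGCAA. Capitals mark every match to these motifs, on either strand. Many of the strongest p42-only regions held none of these motifs, among them the strongest of all, in DLEC1.

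BRCA2, chr13:32362728-32362848: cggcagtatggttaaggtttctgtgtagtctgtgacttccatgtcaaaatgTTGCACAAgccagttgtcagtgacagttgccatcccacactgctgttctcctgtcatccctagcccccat
MTAP, chr9:21817331-21817451: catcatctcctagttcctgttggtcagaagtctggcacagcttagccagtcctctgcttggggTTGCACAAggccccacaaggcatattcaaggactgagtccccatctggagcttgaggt
MAP7, chr6:136415502-136415622: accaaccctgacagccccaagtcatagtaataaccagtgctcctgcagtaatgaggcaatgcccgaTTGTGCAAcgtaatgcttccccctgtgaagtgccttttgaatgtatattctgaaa
ARHGAP15, chr2:143427986-143428106: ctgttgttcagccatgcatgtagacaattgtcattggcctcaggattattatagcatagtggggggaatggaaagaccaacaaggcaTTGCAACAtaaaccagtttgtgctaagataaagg
CNTNAP2, chr7:146948736-146948856: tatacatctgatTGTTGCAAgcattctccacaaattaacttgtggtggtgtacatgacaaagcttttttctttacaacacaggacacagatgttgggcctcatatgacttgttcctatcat
MXD1, chr2:69927209-69927329: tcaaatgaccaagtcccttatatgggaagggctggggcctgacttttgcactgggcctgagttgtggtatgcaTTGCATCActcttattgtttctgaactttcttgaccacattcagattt

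The C/EBP match lay 5 to 10 bp from the summit in the BRCA2, MTAP and MAP7 regions, all in introns. In p42 cells these summits held 27, 28 and 22 tags after tunicamycin and 33, 28 and 18 tags in DMSO. EV cells had no peak there after tunicamycin. In DMSO they had none at BRCA2, and peaks of 11 tags at MTAP and 13 tags at MAP7. The MXD1 window lies in an intron of the gene of a MYC network repressor, with 20 tags in p42 cells after tunicamycin and no EV peak in either condition. The composite matches lay farther from the summit, at 31 bp (ARHGAP15), −44 bp (CNTNAP2) and 17 bp (MXD1).

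EV-only regions picked in the same way are shown for other motifs, which many of the strongest EV-only regions also lacked. The first 3 windows hold a match to the AP-1 motif TGANTCA in capitals, and the fourth, PLXNA4, holds a match to the RUNX motif AACCACA. PLXNA4 was not the strongest EV-only region with RUNX letters, since the stronger PLXNA2 and MED30 regions also held them within 100 bp of the summit.

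PLXNA2, chr1:208189342-208189462: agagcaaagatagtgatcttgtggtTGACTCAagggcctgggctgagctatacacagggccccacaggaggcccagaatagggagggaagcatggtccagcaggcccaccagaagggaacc
BICDL1, chr12:120013923-120014043: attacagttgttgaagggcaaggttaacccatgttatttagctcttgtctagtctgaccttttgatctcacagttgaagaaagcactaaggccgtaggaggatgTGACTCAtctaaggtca
CST7, chr20:24773864-24773984: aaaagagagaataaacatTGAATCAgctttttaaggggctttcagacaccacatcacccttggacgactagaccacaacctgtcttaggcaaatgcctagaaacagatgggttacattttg
PLXNA4, chr7:132309199-132309319: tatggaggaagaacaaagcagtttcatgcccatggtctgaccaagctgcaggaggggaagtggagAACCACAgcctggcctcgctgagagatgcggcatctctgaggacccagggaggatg

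The PLXNA2 region, in an intron of a semaphorin receptor gene, had a summit of 23 tags in EV cells after tunicamycin and 17 in DMSO, and 19 and 18 in p30 cells in DMSO and after tunicamycin. In p42 cells it held 10 tags in DMSO and no peak after tunicamycin. The PLXNA2 window also holds a RUNX match on the other strand, which runs into the AP-1 match and is not marked. The BICDL1 region held 18 and 17 tags in EV cells after tunicamycin and in DMSO, 26 and 22 in p30 cells in DMSO and after tunicamycin, and 9 in p42 cells in DMSO. The other two did not separate p42 from EV cells in DMSO. CST7 held 17 tags in EV cells after tunicamycin, then 7 in EV and 7 in p42 cells in DMSO, and PLXNA4 held 19, 8 and 9. The CST7 region lay between genes, 175345 bp from the nearest protein-coding start. The AP-1 matches lay at −32 bp (PLXNA2), 47 bp (BICDL1) and −39 bp (CST7) from the summit, and the RUNX match of PLXNA4 at 8 bp.

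Most regions of 1 list were weak. The median summit held 7 tags in p42-only and in EV-only regions and 16 tags in shared regions. The median width was 82, 81 and 204 bp. The median −log10 q, the confidence of the authors' peak caller after correction, was 3.63, 3.53 and 12.3. Shared regions made up 69.8% of the 214102 regions of p42 cells and 76.0% of the 196556 regions of EV cells.

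The surplus of p42-only over EV-only regions was greater among stronger regions. There were 1.23 p42-only regions per EV-only region at a −log10 q from 1 to 3, 1.61 from 5 to 10, 2.77 from 10 to 20, and 53 regions against 5 at 20 or more. Those that reached a −log10 q of 10 are called strong below, and they numbered 1832 among p42-only and 647 among EV-only regions. p42-only regions outnumbered EV-only regions on 23 of 23 chromosomes, by 1.16 times on chromosome 22 to 1.54 times on chromosome 16. The order of the total counts depended on the lengths of the lists. When the 200633 strongest peaks of each list were used, 50902 regions were p42-only and 52932 were EV-only, while 1832 strong p42-only regions still stood against 917 strong EV-only ones.

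**Figure D1:**
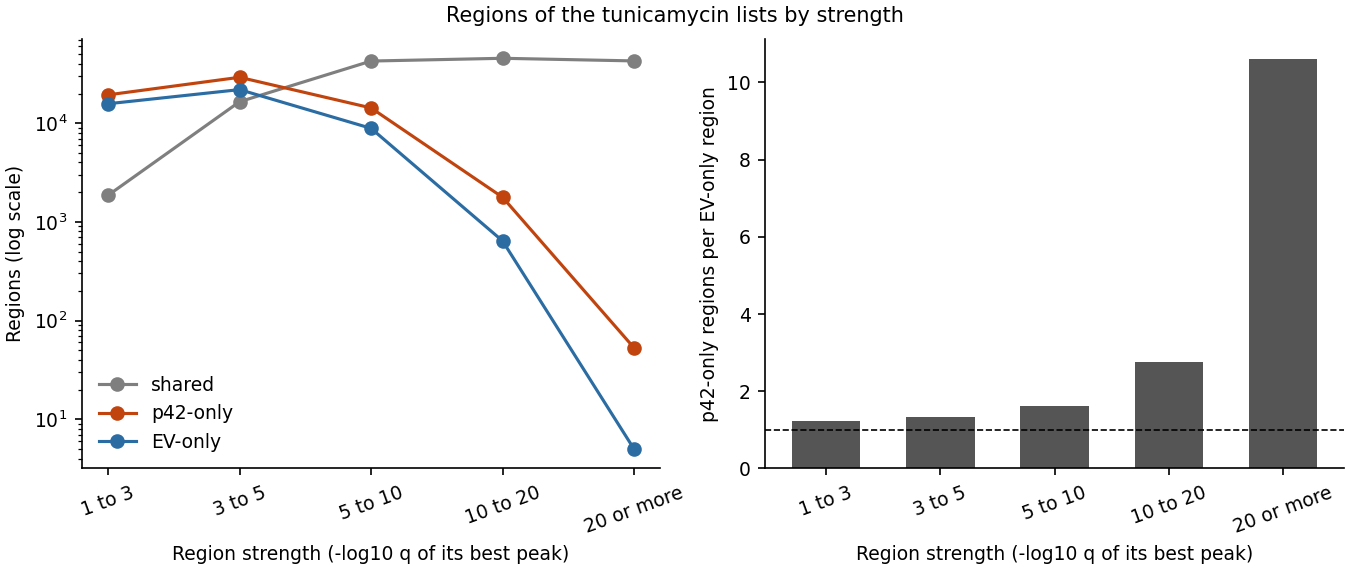
Left, number of regions (log scale) against strength, the −log10 q of the best peak, for shared, p42-only and EV-only regions. Right, p42-only regions per EV-only region in the same bins, with a dashed line at 1. The ratio is 1.23 in the weakest bin and 10.6 in the strongest, which holds 53 and 5 regions.

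Regions of 1 list lay away from promoters more often than shared regions. A protein-coding promoter, within 1000 bp of an annotated start, held 8.16% of p42-only, 9.88% of EV-only and 17.7% of shared regions. Introns held 51.4%, 50.3% and 45.3%, and the space between genes 33.1%, 32.8% and 28.5%. Among strong regions the promoter share was 7.10% for p42-only (interval 6.01 to 8.36) and 7.26% for EV-only regions (5.51 to 9.53), so these intervals overlapped, and 20.7% for shared regions. The median distance to a protein-coding start was 27107 bp for p42-only, 27586 bp for EV-only and 16319 bp for shared regions.

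A peak of the other list often lay close by. Within 1000 bp of it, 28.0% of p42-only and 35.4% of EV-only regions had one, and among strong regions the shares were 17.5% and 24.3%. GC content differed little, with a median of 44.8% in p42-only and 45.3% in EV-only regions.

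Presence in the other 4 lists, which the choice of regions did not use, set both classes apart. Of the strong p42-only regions, 98.1% had a peak in p42 cells in DMSO, 43.7% in EV cells in DMSO, 55.0% in p30 cells in DMSO and 42.7% in p30 cells after tunicamycin. Strong EV-only regions had a peak in EV cells in DMSO in 93.4% of cases, and in p30 cells in 94.6% in DMSO and 91.8% after tunicamycin. They had one in p42 cells in DMSO in 65.4%. Strong EV-only regions were therefore mostly regions of p30 cells as well, since 88.6% were in both p30 lists (interval 85.9 to 90.8), against 33.4% of strong p42-only regions (31.2 to 35.5). Strong shared regions were in both p30 lists in 98.1% of cases, so this is not a trait of EV-only regions. Over all EV-only regions 24.9% were in both p30 lists and 45.1% in neither. For all p42-only regions these shares were 13.0% and 61.2%.

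Where a strong region was listed on 1 side in DMSO, that was mostly its side after tunicamycin, but many were on both sides. A peak in both DMSO lists was present at 42.9% of strong p42-only and 62.75% of strong EV-only regions. Of strong p42-only regions 55.2% were listed in DMSO for p42 but not for EV cells, and 0.764% had the opposite. For strong EV-only regions 30.6% were on the same side in DMSO and 2.63% on the opposite one. Over all p42-only regions the shares were 42.4% and 5.40%. Over all EV-only regions 18.2% were on the same side and 16.6% on the opposite side, so weak EV-only regions hardly kept a side. The p42 list in DMSO was the deepest of the 6 and the EV list in DMSO the shallowest, and the part of depth in these shares was not tested. Regions with no peak in either DMSO list made up 34.2% of p42-only and 44.7% of EV-only regions, but 1.15% and 4.02% of strong ones.

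**Figure D2:**
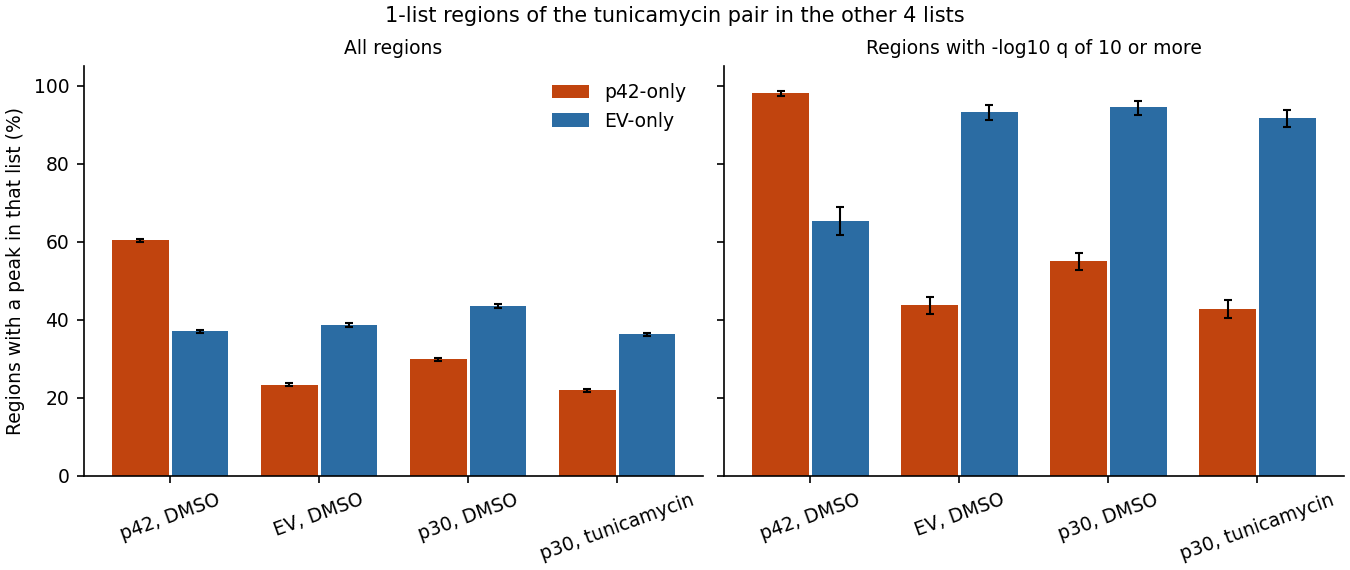
Share of p42-only (red) and EV-only (blue) regions with a peak in each of the other 4 lists, for all regions on the left and for strong ones on the right. Bars are percentages and lines are 95% Wilson intervals. Among strong regions, the EV-only bars reach 91.8% or more in the EV and p30 lists, where the p42-only bars lie between 42.7 and 55.0%.

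Motifs were searched as exact letters on both strands within 100 bp of the summit. A match is a string of letters and not a bound site. The composite TGTTGCAA shares TTGC with the C/EBP motif but meets it only where AA follows, so the motifs were counted apart. The C/EBP motif lay in 18.4% of p42-only, 9.14% of EV-only and 11.3% of shared regions, and in 12.7% of all regions. Among strong regions it lay in 34.6% of p42-only and 8.19% of EV-only regions, 26.4 percentage points apart (interval 23.2 to 29.3). Its share in p42-only regions was higher in stronger regions, from 16.1% at a −log10 q from 1 to 3 to 21.98% from 5 to 10, 34.1% from 10 to 20 and 50.9% of the 53 regions at 20 or more. In EV-only regions it stayed between 8.26 and 9.35% over the 4 bands up to 20.

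Both composites of C/EBP had a similar order. The C/EBP and AP-1 composite lay in 2.01% of p42-only, 0.551% of EV-only and 0.898% of shared regions (1.11% of all regions), a difference of 1.45 points between the first pair (1.33 to 1.58). It lay in 96 of 1832 strong p42-only regions (5.24%) and in 0 of 647 strong EV-only regions, which allows a share of up to 0.464% by the limit of 3 counts and up to 0.590% by the Wilson interval. The C/EBP and ATF4 composite, the site of heterodimers of ATF4, lay in 2.12%, 0.716% and 1.06% (1.26% of all regions), and in 4.15% of strong p42-only and 1.24% of strong EV-only regions. At least one of these motifs or TTACGTAA, the site of the C/EBP-related repressor NFIL3, lay in 41.9% of strong p42-only regions, 9.27% of strong EV-only and 13.0% of strong shared regions.

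EV-only regions held other motifs. AP-1, the dimer of FOS and JUN proteins, had its motif in 16.9% of EV-only, 9.90% of p42-only and 13.3% of shared regions (13.1% of all regions), −7.04 points for p42-only minus EV-only (−7.45 to −6.63). Among strong regions it lay in 32.9% of EV-only and 9.72% of p42-only regions. The RUNX motif lay in 20.1% of strong EV-only and 9.28% of strong p42-only regions (9.53% of all regions). The motif of GATA factors, AGATAAG, which mark stem and erythroid cells, lay in 8.04% and 2.57% (3.24% of all regions). AP-1 or RUNX letters lay in 49.3% of strong EV-only regions and 18.1% of strong p42-only ones.

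Of the remaining motifs, the one for PU.1, GAGGAAGT, a master factor of the myeloid line, was on the p42 side, with 7.33% of p42-only and 4.79% of EV-only regions (7.27% of all regions). The SP/KLF motif GGGCGGG of GC-rich promoters lay in 2.55% and 2.78%, and in 8.27% of shared regions. The stress motifs were rare and close in both classes. The cyclic AMP response element TGACGTCA lay in 0.111% and 0.121% and the unfolded protein response element TGACGTGG, the site of XBP1 and ATF6, in 0.189% and 0.229%. The intervals of both stress motif differences included 0.

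**Figure D3:**
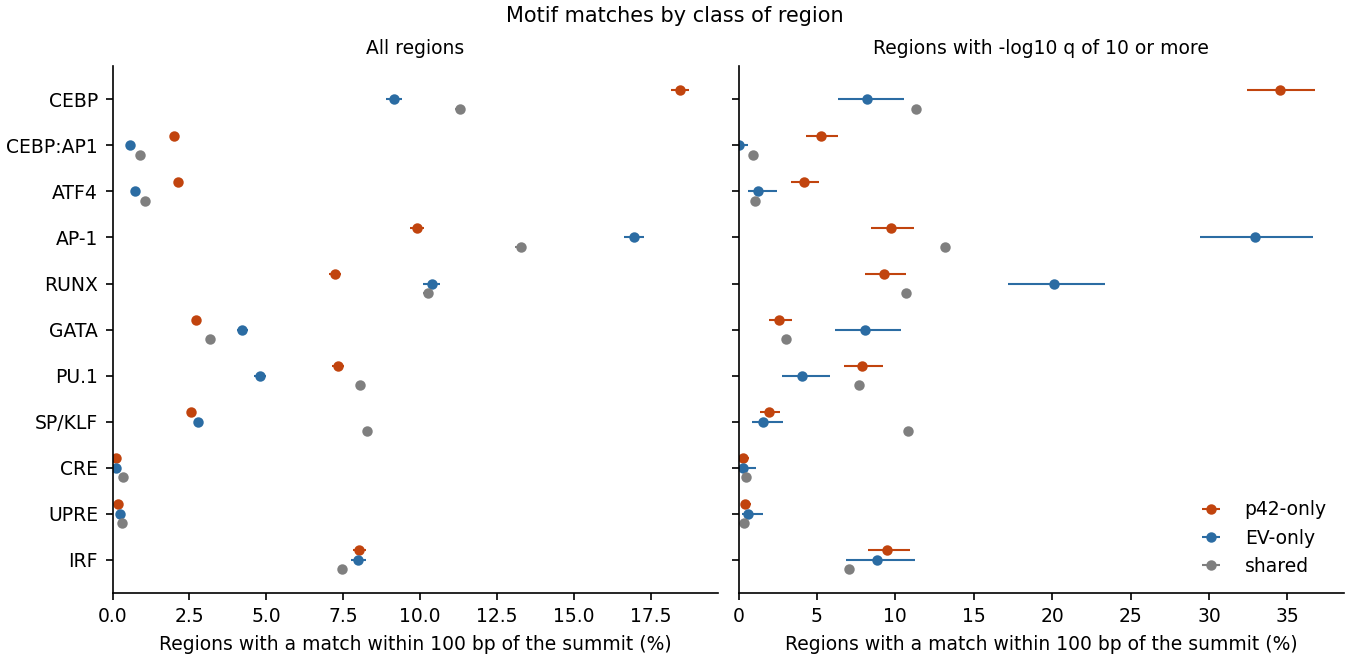
Share of p42-only, EV-only and shared regions with a match to each of the motifs named on the axis (CEBP:AP1 and ATF4 are the composites with C/EBP) within 100 bp of the summit, for all regions on the left and strong ones on the right. Points are percentages and lines are 95% Wilson intervals. C/EBP reaches 34.6% in strong p42-only and AP-1 32.9% in strong EV-only regions.

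The motif contrast held in each subset looked at. In protein-coding promoters C/EBP lay in 12.3% of p42-only and 5.99% of EV-only regions, and AP-1 in 5.96% and 9.87%. In windows with a GC content under 40% C/EBP lay in 25.7% and 12.9%, and at 50% or more in 9.98% and 4.96%. In regions with no peak in either DMSO list C/EBP lay in 14.3% of p42-only and 9.15% of EV-only regions, and AP-1 in 9.86% and 16.0%. Strong p42-only regions absent from both p30 lists held C/EBP in 44.3% of 654 cases and the AP-1 composite of C/EBP in 7.95%, against 24.6% and 2.62% of the 611 present in both. The interval for C/EBP was 40.6 to 48.2 in the former and 21.3 to 28.1 in the latter.

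Matches gathered at the summits. In p42-only regions the C/EBP motif was 1.95 times as dense within 50 bp of the summit as beyond 400 bp, and both composites were 3.48 (AP-1) and 3.60 times (ATF4) as dense. In EV-only regions the densities of C/EBP and its AP-1 composite were 0.80 and 0.730 times those beyond 400 bp. AP-1 was 3.52 times as dense at EV-only summits, 1.81 times at p42-only and 2.86 times at shared summits. RUNX matches were as dense at EV-only as at shared summits, 13.9 and 14.0 per 1000 regions and 20 bp, and 9.19 at p42-only summits.

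**Figure D4:**
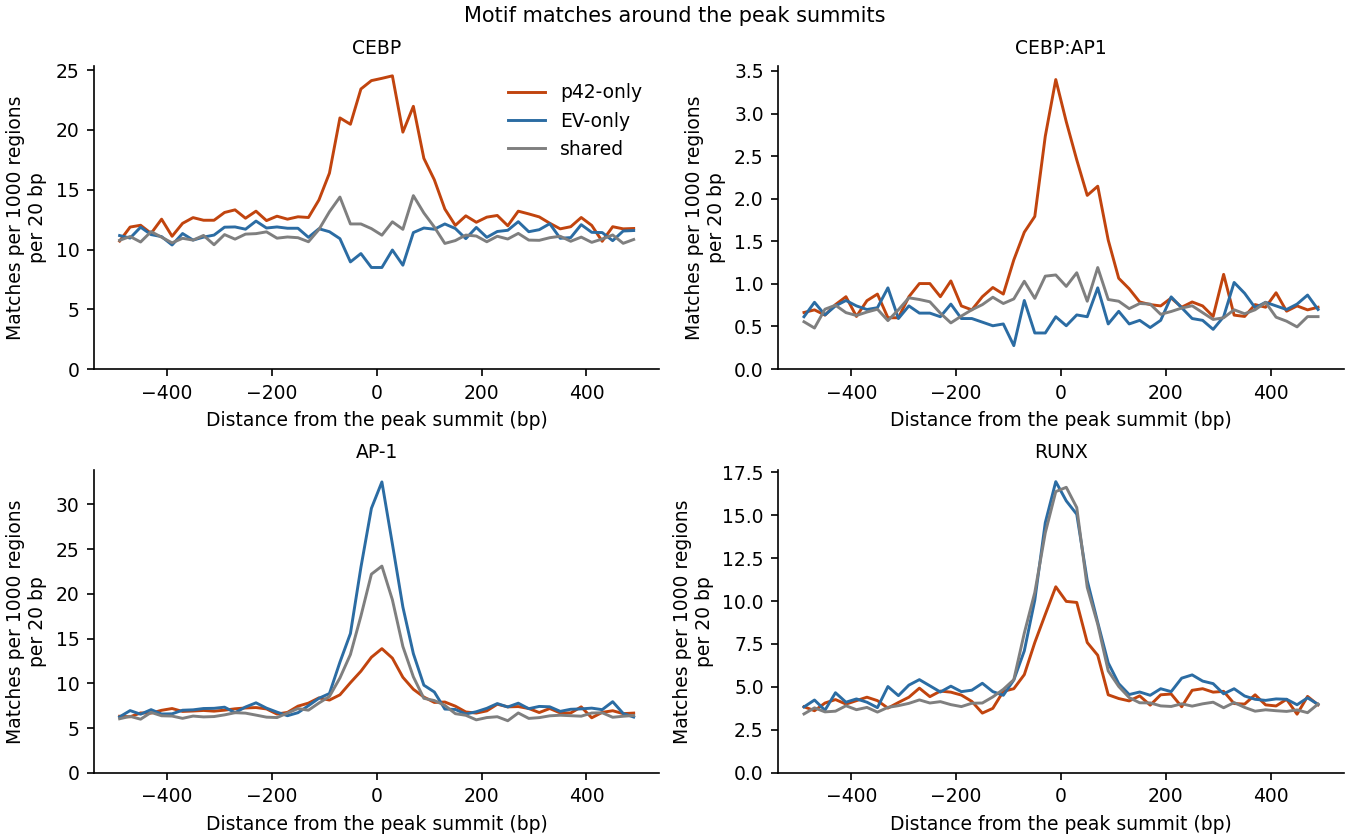
Motif matches per 1000 regions in bins of 20 bp against the distance from the peak summit, for 4 motifs and the 3 classes of regions. C/EBP and its AP-1 composite peak at p42-only summits, and AP-1 is densest at EV-only summits, where it is 3.52 times as dense as beyond 400 bp.

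Shared regions gave a comparison by height. The summit tags of p42 cells were scaled to the estimated depth of EV cells, and 58442 shared regions held at least 20 tags in one of the lists. Their median log2 ratio of p42 to EV tags was −0.02. At least 2 times the tags were found in p42 cells in 839 of these regions (1.44%) and in EV cells in 949 (1.62%). This order turned with the scaling, to 1051 and 949 without scaling and to 1107 and 692 when tags were scaled by the background level, so these counts give no direction. The highest summits held 109 tags in p42 and 111 in EV cells, close to the ceilings of 114 and 120 that a single tag per position and strand allows, so the ratios of tall summits are compressed.

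The motifs of these shared regions followed those of the regions of 1 list. C/EBP lay in 31.7% of the regions with at least 2 times the tags in p42 cells and in 8.11% of those with at least 2 times the tags in EV cells, against 9.96% of all 58442. AP-1 lay in 8.70% and 30.7%, against 12.03%. RUNX lay in 11.9% and 24.6%, against 10.0%, and GATA in 2.03% and 8.64%, against 2.65%. Promoters were scarce in both sets, 6.32% and 6.96%, where 29.6% of all 58442 lay at one.

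The same ratio was computed in DMSO, where both DMSO lists had a peak. Of 788 regions with at least 2 times the tags in p42 cells after tunicamycin, 87.8% were higher in p42 cells in DMSO, with a median log2 ratio of 0.57. Of 921 regions with at least 2 times the tags in EV cells, 2.28% were, with a median of −0.97. Over all regions the share was 30.1% and the median −0.18.

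Taken by motif, the median log2 ratio of shared regions after tunicamycin was 0.09 for C/EBP, 0.18 for its AP-1 composite and 0.05 for its ATF4 composite. It was −0.18 for AP-1, −0.14 for RUNX and −0.20 for GATA. The widest shift was at matches to the motif of CTCF, the insulator protein, with a median of 0.25 in 3309 regions, of which 79.8% were higher in p42 cells. CTCF matches were also above the rest in DMSO, at 0.04 against −0.18. The shortest peak, taken as the fragment length, was 57 bp in the p42 list and 60 bp in the EV list after tunicamycin, and its part in these ratios was not tested.

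**Figure D5:**
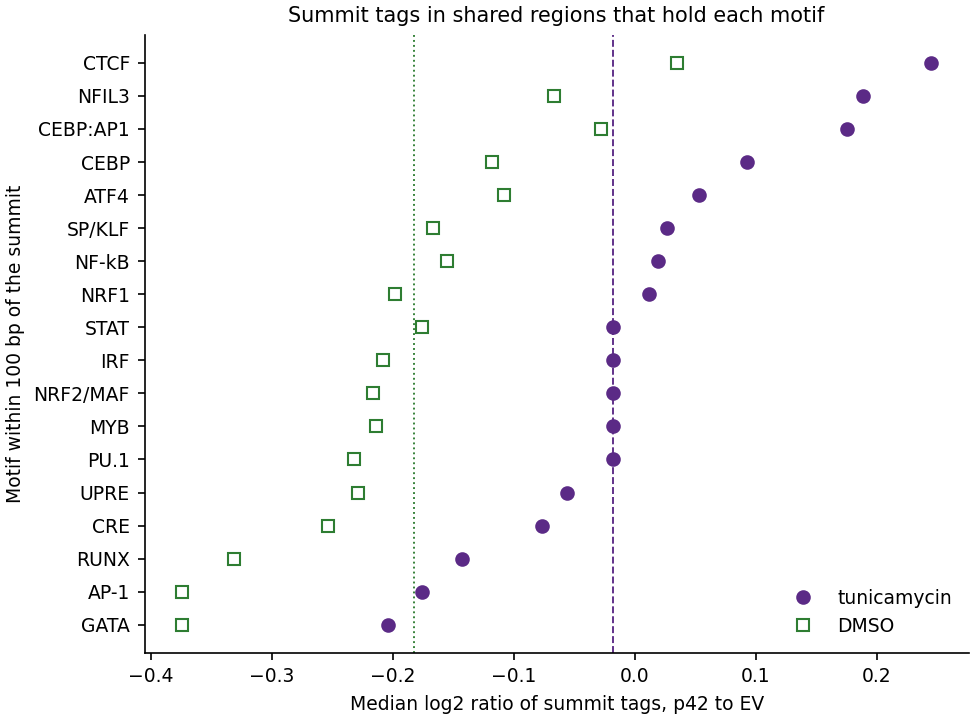
Median log2 ratio of summit tags, p42 to EV, in shared regions of at least 20 tags that hold each of 18 motifs (CEBP:AP1 and ATF4 are the composites with C/EBP), after tunicamycin (filled circles) and in DMSO (open squares). Lines mark the medians over all these regions, −0.02 after tunicamycin (dashed) and −0.18 in DMSO (dotted). GATA, AP-1 and RUNX lie lowest after tunicamycin, and CTCF lies highest in both.

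The strongest p42-only region lay in an intron of DLEC1 (chr3:38102246-38102567), with 28 tags in p42 cells after tunicamycin, 27 in p42 cells in DMSO, 6 in EV cells in DMSO and 8 in p30 cells after tunicamycin. The regions in FGGY, near FGFBP1, in RANBP17 and in BRCA2 followed, with 28, 26, 23 and 27 tags after tunicamycin. Among these only RANBP17 had an EV peak, of 9 tags in DMSO. FGGY encodes a carbohydrate kinase, FGFBP1 a binding protein of fibroblast growth factors and BRCA2 a DNA repair protein. TECRL, ADGRF5, TUT4, NSUN4 and PPP4R3A were nearest to the rest of the 10 strongest. All 10 had a p42 peak in DMSO, with 14 to 36 tags, and 3 had one in EV cells in DMSO, of 6 to 9 tags. 1 of the 10, at PPP4R3A, was at a promoter.

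The 10 strongest EV-only regions were nearest to PLXNA2, MED30, PLXNA4, SRRM3, FSTL5, PMAIP1, SMIM36, INPP5D, TLN2 and SEC24B. They held 18 to 23 tags in EV cells after tunicamycin. In 9 of these a p42 peak of 7 to 11 tags was present in DMSO, and all had a peak in EV cells in DMSO and in both p30 lists. INPP5D, which encodes the phosphatase SHIP1 of blood cells, held 21 tags in EV cells and 17 and 18 in p30 cells, and 8 tags in p42 cells in DMSO.

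Among shared regions the highest ratio was between genes, 129115 bp from the nearest start, that of MED13L (chr12:116406658-116406864). This region held 26 tags in p42 and 4 in EV cells after tunicamycin, and 29 and 11 in DMSO. Next came a region 94759 bp from the start of IRS2, which encodes an adaptor of the insulin receptor, with 24 against 4 tags. A region in an intron of GSAP held 34 against 6 tags over a C/EBP and AP-1 composite. EP400, SFXN5 and NXT1 completed the 6 highest. The lowest ratio was between genes, 59159 bp from the start of ITPKB (chr1:226798413-226798756), which encodes a kinase of inositol phosphates in lymphocytes. That region held 4 tags in p42 and 23 in EV cells, and 9 and 18 in DMSO. It held RUNX and GATA matches. FAM172A, ARPP21, SLC27A6, PIK3R1 and ABRA completed the 6 lowest. These names give the nearest protein-coding start, which can be far from the region. It was 774775 bp away for ARPP21 and 111801 bp for FAM172A, whose region lay inside KIAA0825.

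Genes were then read by the regions at their promoters and around them. Of 19970 protein-coding genes, 4667 (23.4%) had a p42-only and 4267 (21.4%) an EV-only promoter region, and 1461 had both. With lists of equal length the order turned, to 3918 and 4671 genes. Of the 4667 and 4267 genes, 88.4% and 89.6% also had a shared promoter region, so a region of 1 list at a promoter mostly stood beside a region open in both. A broad open promoter can be called as 1 peak in one list and as several in another, and the tags given for other lists are those of any peak that overlaps the region, which may have its summit outside it. A strong p42-only region over the gene or within 10 kb was found at 1215 genes (6.08%) and a strong EV-only region at 465 (2.33%). ENOX2 had the largest surplus, with 4 strong p42-only regions, and ASAP1, CCDC91, CORO1C, CSMD3, ELMO1, KIAA0319L and LRMDA had 3 each and no strong EV-only one. CORO1C, an actin-binding coronin, had 13 p42-only and 1 EV-only region in all, and ELMO1, which links phagocytosis receptors to RAC, had 33 and 12. CFAP299, ERC2, GPC6, PLXNA2, TMCC3 and WT1 had 2 strong EV-only regions each. ABCA13 and ABLIM1 had 1, as did most of the 465 genes, and are first among them only by symbol. These 16 genes span 47.8 to 1214 kb, and longer genes hold more regions of every class. WT1 encodes a transcription factor that is often high in AML.

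Granule proteins of neutrophils and their precursors, which include known C/EBP targets, leaned to the p42 side at their promoters. Of 24 such genes 10 had a p42-only promoter region (41.7%) and 2 an EV-only one (8.33%), beside 23.4% and 21.4% of all genes. Those with the strongest p42-only promoter regions were AZU1, RNASE3, DEFA4, S100A9, CTSG and MPO. At AZU1 (azurocidin, chr19:827714-827883) the summit held 12 tags in p42 cells after tunicamycin and 15 in DMSO, and 7 in EV cells in DMSO, and it had a C/EBP match. At RNASE3, the eosinophil cationic protein, it held 10 and 16 tags in p42 cells, none of the EV or p30 lists had a peak, and a C/EBP match was present. The S100A9 region with the higher −log10 q had 12 tags in p42 cells after tunicamycin and no peak in any other list.

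The shared promoter regions of the granule genes gave the same order by height. Of 16 with one, 14 were higher in p42 cells, with a median log2 ratio of 0.64, against 7410 of 15475 genes and a median of −0.02 over all. The quartiles over the 12098 genes whose promoters held no more tags than the tallest granule promoter were −0.15 and 0.17. MPO, the myeloperoxidase gene, had 38 tags in p42 and 27 in EV cells. CTSG (cathepsin G) had 29 and 15, and RNASE3 15 and 6. The following genes were chosen after their values were seen. S100A12 had 18 and 6 tags, RNASE2 30 and 16, S100A8 23 and 13, and LCN2 16 and 9. LTF, with 39 and 46 tags, and CAMP, with 30 and 32, both of secondary granules, were the 2 promoters that were lower in p42 cells. In DMSO the median of the 16 was 0.07, against −0.20 over all genes. The strong regions around granule genes were on the other side, with 0 genes for p42-only and 3 (ARG1, BPI and MMP9) for EV-only regions. Over all genes 6.08% had a strong p42-only and 2.33% a strong EV-only region.

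Surface and pattern recognition genes of monocytes had more EV-only promoter regions, 14 of 37 (37.8%) against 5 p42-only (13.5%). Over all genes the shares were 21.4% for EV-only and 23.4% for p42-only promoter regions. The EV-only ones included CLEC7A, CD86, CD14, LY96 and TLR4, and also LYZ, a member of this list that encodes the secreted enzyme lysozyme. Such a region need not mean an altered promoter. At CD14, the co-receptor of lipopolysaccharide, the EV-only region (chr5:140633079-140633191) held 11 tags beside a shared promoter region of 22 tags in p42 and 21 in EV cells, and in DMSO a single EV peak of 25 tags covered both. By height the shared promoters of this list leaned to the p42 side, with 21 of 31 higher in p42 cells and a median log2 ratio of 0.10. CLEC7A, the beta-glucan receptor dectin-1, had an EV-only region with an AP-1 match at its start (11 tags, no p42 peak in either condition) and a p42-only region with a C/EBP and AP-1 composite 1079 bp away (10 tags). TLR4 also had a strong p42-only region over the gene or within 10 kb. It held 19 tags in p42 cells after tunicamycin and 22 in DMSO, and 6 in EV cells in DMSO. In this list 1 gene had a strong p42-only region (2.70%) and 2 a strong EV-only one (5.41%), beside 6.08% and 2.33% of all genes.

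Growth factor receptor genes had 4 of 19 with a strong p42-only region (21.1%), which were CSF2RB, FLT3, IL1R1 and IL1R2, and 1 with a strong EV-only region, CSF1R, where 6.08% and 2.33% of all genes had one. The median length of these genes was 46.1 kb, against 27.5 kb over all genes, and a longer gene has more room for regions. The FLT3 region, in an intron (chr13:28053026-28053263), held 21 tags in p42 cells after tunicamycin and 29 in DMSO, 5 in EV and 10 in p30 cells in DMSO, and a C/EBP and AP-1 composite. CSF2RB, the common beta chain of the GM-CSF and IL-3 receptors, held 15 and 19 tags in p42 cells and no peak in any of the other lists. The CSF1R region held 19 tags in EV cells, 20 in EV cells in DMSO, 29 and 20 in p30 cells, and 12 in p42 cells in DMSO, with an AP-1 match.

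Most genes of the stress that both groups underwent were open in both, as were 15475 of the 19970 genes in all. A shared promoter region was present at 11 of 11 sensors and factors of the unfolded protein response, 18 of 20 ATF4 effectors, 22 of 23 genes of amino acid supply and tRNA charging and 24 of 24 chaperones and degradation factors of the endoplasmic reticulum. Their median promoter log2 ratios lay between −0.08 and 0.06, near the −0.02 of all genes. p42-only promoter regions were found at 5, 4, 8 and 4 of these genes and EV-only ones at 6, 4, 7 and 3, beside 23.4% and 21.4% of all genes. The shares ran from 16.7 to 45.5% for p42-only and from 12.5 to 54.5% for EV-only regions. XBP1 had a p42-only one with an ATF4 composite (16 tags, also 16 in p42 cells in DMSO and no other list). GDF15, a stress-induced cytokine, had a p42-only one of 15 tags, 75 bp from a start, and an EV-only one of 9 tags. ATF5 had an EV-only region of 14 tags beside a shared one of 43 tags in p42 and 36 in EV cells. Strong p42-only regions lay near 3 of the 20 ATF4 effectors, NUPR1, FGF21 and TNFRSF10B, and near ATF6, EDEM1 and DERL1, and 1 strong EV-only region lay in these 4 lists, at MBTPS1. By list, the shares with a strong p42-only region ran from 0 to 15.0%, and those with a strong EV-only region from 0 to 9.09%. Over all genes they were 6.08% and 2.33%, and no list had more than 3 such genes on a side. The NUPR1 region (chr16:28534473-28534926) held a C/EBP match, 15 tags in p42 cells after tunicamycin and 22 in DMSO, 5 in p30 cells in DMSO and no EV peak.

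Among transcription factors, the AP-1 family had 7 of 21 genes with an EV-only promoter region (33.3%), among them BATF3, ATF7 and MAFF, and 2 with a p42-only one (9.52%), FOSL2 and JUN. The C/EBP family had 2 of 11 on each side. NF-kB subunits and inhibitors had 7 of 20 EV-only (35.0%), with TNFAIP3 the strongest, and 2 p42-only (10.0%). Regulators of stem cells and AML had 12 of 31 EV-only (38.7%), with LMO2, HOXA7, MN1, MEIS1, HOXA10 and MECOM the strongest, and 7 of 31 p42-only (22.6%), led by TRIB1, which encodes a pseudokinase that directs CEBPA to degradation. TRIB1 had a shared promoter region of 45 tags in both, and its p42-only region had a C/EBP match, with 31 tags in p42 cells after tunicamycin and 30 in DMSO, 21 in EV and 28 in p30 cells in DMSO and 23 in p30 cells after tunicamycin. Myeloid transcription factors had 10 p42-only and 11 EV-only of 25. Over all genes 23.4% had a p42-only and 21.4% an EV-only promoter region. Counted over or near the genes, p42-only and EV-only regions numbered 27 and 27 for the AP-1 family and 41 and 26 for NF-kB. For stem cell and AML regulators they numbered 116 and 90, and over all genes 45907 and 33517. Median log2 ratios of shared promoters were −0.07, −0.04 and −0.05 in these lists, against −0.02 over all genes.

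Inflammatory mediators had 7 of 30 genes with a p42-only promoter region, near the share of all genes, led by CCL4, IL1RN, CXCL1 and CXCL8, and 4 with an EV-only one. IL1RN, the antagonist of the IL-1 receptor, was on both sides, with an EV-only promoter region of 13 tags and a strong EV-only region with an AP-1 match in an intron. Interferon response genes had 12 of 29 p42-only (41.4%) and 6 EV-only (20.7%). By height, 12 of their 29 shared promoters were higher in p42 cells, with a median log2 ratio of −0.02, the same as over all genes. The strongest p42-only promoter region was at ISG15, a ubiquitin-like protein, with 27 tags in p42 cells after tunicamycin. It had a peak of 24 to 36 tags in each of the other 4 lists, and lay beside a shared region of 34 tags in p42 and 39 in EV cells. Cell cycle genes had 6 and 8 of 32, with strong p42-only regions near CDK1, E2F2, E2F3 and MCM4. The CDK1 region (chr10:60803391-60803724) held C/EBP and ATF4 composite letters, 17 tags after tunicamycin and 20 in DMSO in p42 cells, and 7 in EV cells in DMSO. Ribosomal protein genes, a reference list, had 4 and 6 of 34 and a median promoter log2 ratio of 0.01. These lists overlap and were read against the shares of all genes only. Those shares were 23.4% (p42-only) and 21.4% (EV-only) for promoter regions, and 6.08% and 2.33% for strong regions over or near a gene.

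The labelled cell type was checked by promoters. All 8 leukocyte and myeloid marker genes, PTPRC, SPI1, LYN, CD33, KIT, CD34, MPO and CSF3R, had a shared promoter region, with 18 to 48 tags in p42 and 22 to 54 in EV cells. Among markers of other cell types, CD3E and CD4, of T cells, had one. ALB, CDH5 and NEUROD1 had regions of 1 list with 4 to 9 tags at a promoter. CEBPA itself (chr19:33299934-33302534) had 1 peak in every list, over its start, with 44 tags in p42 and 39 in EV cells after tunicamycin and 43 and 39 in DMSO. The vector gave no separate peak over the gene, so the lists do not show by themselves which cells carried p42.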

How the data were processed

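Per the authors' methods, ATAC-seq reads were trimmed (Trim Galore 0.6.6), aligned to hg38 (Bowtie2 2.4.4), cleared of duplicates (Picard) and pooled over 2 replicates per condition before MACS2 called peaks, giving 6 deposited lists for 12 libraries. Removal of mitochondrial reads, the Tn5 shift and the peak calling parameters are not given in the sources used here. The authors deposited for each peak the fold enrichment of its summit over the background of the same list, the −log10 p and −log10 q, and the distance of the summit from the peak start. None is normalized between lists, and the lowest −log10 q was 1.3.

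Summit tags were solved from the deposited fold enrichment and −log10 p under a Poisson background, which gave whole numbers for 100.0% of peaks, and the method was tested on simulated data. Depth was estimated from the lowest background, the shortest peak taken as the fragment length, and a genome size of 2700000000 bp. Peaks of p42 and EV cells after tunicamycin were merged at 1 bp, a region took its best peak, and genes came from GENCODE 44. Samples were grouped by their labels. Python 3.11.15, NumPy 2.4.6, SciPy 1.17.1 and pandas 2.3.3 were used.

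The comparison, the gene lists, the motifs and the rule for named genes were chosen with earlier results of these data known. Named were the protein-coding genes closest to the 10 top regions of p42-only and EV-only and to the 6 shared regions with the highest and with the lowest tag ratio, the 8 genes with the largest difference in strong regions in each direction, and in each list up to 6 genes per direction by the −log10 q of their regions. Markers and genes said to be chosen later fall outside this rule. Other thresholds, overlaps, windows, scalings and list lengths were tried as alternatives. Results on a few withheld items are not reported here.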

Additional observations from a re-analysis of the deposited data

How the results depend on the processing

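Of 78 alternative values, 50 stayed within the limits set for them. The limit was 1.5 times for counts, and the interval of the reported value for shares and differences of shares. Only the differences in motif share could change sign, and none did. When both lists were restricted to peaks whose −log10 q reached 5, there were 32335 p42-only and 23358 EV-only regions, differences of 1.68 points for the C/EBP and AP-1 composite and −9.90 for AP-1, 3071 and 2575 genes with a p42-only and an EV-only promoter region, and shares on the same side in DMSO of 37.8% and 17.1%. For strong regions these values were 1832, 647, 5.24, −23.2, 141, 50, 55.2% and 30.6%, and shared regions have no value there. With equal list lengths the p42 share in DMSO was 45.2%, and with an overlap of 50% of the narrower peak the shares were 41.5% and 17.75%. Merging all 6 lists gave −7.77 points for AP-1 and 17.6% of EV-only regions on their side in DMSO. Motif windows of 50 bp gave 0.936 and −6.07 points, and windows of 200 bp 1.71 and −6.39. Without regions that had a peak of the other list within 1000 bp, an alternative chosen after seeing the data, 30505 EV-only regions remained, with 1.60 points for the composite and −8.67 for AP-1. The depth-scaled threshold, autosomes alone and other promoter widths stayed within the limits. Each count of shared regions with at least 2 times the tags also stayed within 1.5 times under other scalings (one added after seeing the data), but the order of both counts turned, from 839 in p42 and 949 in EV cells to 1051 and 949 unscaled and 1107 and 692 by background. With equal list lengths the order of p42-only and EV-only totals turned, as given with the counts, and so did that of the promoter genes (3918 and 4671). No library could be left out because each list pools its replicates. No paired analysis was possible because the pooled lists carry no replicate numbers and no result comes from a test.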
